A study of Mus musculus with 20 samples.

Results

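The regions described are isolated unmethylated CpG-dense windows of the mouse genome, 11850 of the 84524 autosomal windows of 1 kb (14.0%) in which CpG methylation was measured by bisulfite sequencing in every one of 20 promyelocyte libraries. A window was a member when it held at least 20 cytosines covered by at least 10 reads in all 20 libraries, when its mean methylation level over the 20 libraries was under 10%, and when it did not lie in a run of 4 or more adjacent low windows. The level of a window in a library is 100 times its methylated reads divided by all its reads, and its mean level is the mean of the 20 library levels. Of 13457 windows with at least 20 such cytosines, 12660 were under 10%, and 11850 of those (88.1% of all dense windows) were left once 810 windows in long runs were set aside. The members were thus chosen by their measured levels in these 20 libraries, so every level below is a description, and only differences between groups of libraries were tested.

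Most CpG sites of a mammalian genome are methylated, and the exceptions are mainly CpG islands, short CpG-rich stretches that usually hold a gene's start. Islands are thought to stay unmethylated because CpG-binding proteins with a CXXC domain and the histone marks they bring keep the DNA methyltransferases Dnmt3a and Dnmt3b away, and because the Tet enzymes oxidise methyl groups that do arrive. Broad unmethylated domains around developmental regulators are a separate, Polycomb-bound class, and the run limit leaves much of that class out. PML-RARa, the fusion of the promyelocytic leukaemia protein with retinoic acid receptor alpha, drives acute promyelocytic leukaemia and is known for recruiting corepressors and DNA methyltransferases, and acute leukaemias as a class are known for extra methylation in CpG islands.

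The upstream DNA of 4 genes that start in members is shown with that of a germline gene whose start lies in a methylated CpG-dense window, to show what such a stretch looks like and which of its CpGs were read. Each line is the 250 bases before the start, 5′ to 3′ in the gene's direction, from RefSeq's GRCm38.p6 promoter table, with capitals marking the CpGs that had at least 10 reads in all 20 libraries on at least one strand. The 5 genes were chosen after their values were seen. Their places on mm9, the genome build of the data, were found by matching the spacing of the table's CpGs to the listed cytosines, so the letters between CpGs were not checked in these FVB/n mice. Runx1 (runt-related transcription factor 1, a regulator of blood stem cells and granulocyte development) was placed with its upstream bases at chr16:92697575-92697824 on the minus strand, E2f1 (a cell cycle activator) at chr2:154395163-154395412 on the minus strand, and Tet2 (an enzyme that oxidises methylcytosine, often mutated in myeloid leukaemia) at chr3:133207355-133207604 on the minus strand. Hoxd10 (a homeobox regulator of limb and spinal patterning) was placed at chr2:74529698-74529947 on the plus strand, and Ddx4 (the germ cell RNA helicase also called Vasa) at chr13:113442519-113442768 on the minus strand.
Runx1: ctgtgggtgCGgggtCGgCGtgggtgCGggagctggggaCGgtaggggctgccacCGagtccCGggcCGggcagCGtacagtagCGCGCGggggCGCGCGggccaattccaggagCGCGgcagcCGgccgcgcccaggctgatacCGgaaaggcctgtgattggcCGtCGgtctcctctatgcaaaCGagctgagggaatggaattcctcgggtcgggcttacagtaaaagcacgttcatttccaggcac
E2f1: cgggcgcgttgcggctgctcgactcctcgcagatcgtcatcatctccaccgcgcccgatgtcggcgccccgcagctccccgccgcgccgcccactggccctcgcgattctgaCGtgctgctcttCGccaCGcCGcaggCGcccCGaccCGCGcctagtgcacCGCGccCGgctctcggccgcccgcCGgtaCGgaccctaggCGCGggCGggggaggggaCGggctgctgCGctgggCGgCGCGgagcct
Tet2: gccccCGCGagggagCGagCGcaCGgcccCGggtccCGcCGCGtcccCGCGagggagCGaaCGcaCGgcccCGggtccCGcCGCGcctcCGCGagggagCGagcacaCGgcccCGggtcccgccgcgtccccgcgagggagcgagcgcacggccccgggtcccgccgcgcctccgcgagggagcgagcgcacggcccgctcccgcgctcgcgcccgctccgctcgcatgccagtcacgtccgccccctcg
Hoxd10: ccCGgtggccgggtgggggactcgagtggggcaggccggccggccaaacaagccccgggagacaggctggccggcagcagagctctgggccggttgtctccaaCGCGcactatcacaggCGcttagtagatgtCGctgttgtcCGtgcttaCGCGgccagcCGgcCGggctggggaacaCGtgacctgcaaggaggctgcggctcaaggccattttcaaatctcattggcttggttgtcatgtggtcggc
Ddx4: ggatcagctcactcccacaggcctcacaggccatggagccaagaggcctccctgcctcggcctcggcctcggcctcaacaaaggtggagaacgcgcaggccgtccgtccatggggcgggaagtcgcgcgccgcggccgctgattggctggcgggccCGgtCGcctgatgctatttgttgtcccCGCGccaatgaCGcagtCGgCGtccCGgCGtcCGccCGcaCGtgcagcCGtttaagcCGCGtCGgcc
In the Runx1 stretch, 22 of 27 CpGs were read, and the mean level of their 33 cytosines was 0.0796%, with single cytosines between 0 and 0.597%. In the E2f1 stretch the 22 cytosines at 21 of 43 CpGs had a mean level of 0.0476%, and in the Tet2 stretch the 36 cytosines at 23 of 51 CpGs had a mean level of 0.113%. The Hoxd10 stretch, with 11 of 20 CpGs read, averaged 4.53%, and its cytosines ran from 0.293 to 11.1%. The Ddx4 stretch had 31 CpGs, of which 16 were read on 24 cytosines, and averaged 87.9%, with single cytosines from 0.105 to 98.2%. Ddx4 had more CpGs in these 250 bases than Runx1 or Hoxd10.

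The libraries came from mice of the FVB/n background and were made by enhanced reduced representation bisulfite sequencing, which reads CpG-rich restriction fragments after a treatment that turns unmethylated cytosines into T. There were 4 groups of 5 libraries: wild-type (WT) mice and PML-RARa transgenic mice, each sorted into CD34 positive (CD34+) early promyelocytes and CD34 negative (CD34-) late promyelocytes, the granulocyte precursors in which this leukaemia arises. All 4 groups share the FVB/n background, the WT libraries serve as the controls without the transgene, and CD34, a surface protein of stem and progenitor cells, is lost as promyelocytes mature. The labels give no age, no promoter for the transgene and no statement that libraries came from separate mice, so p-values measure the spread between these libraries, which may in part be technical. Libraries are named by group and by the leading number of their title. The titles also hold a second number, #1 or #2. Both occur in every group, and the labels do not state what the second number means.

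Coverage summed over listed cytosines ran from 83631324 reads in PML-RARa CD34+ 11 to 362881291 reads in PML-RARa CD34+ 19. The median member was covered by 1842.5 to 9866 reads per library, each read counted once for every cytosine it covers. With all counts taken as independent, a member with 0 methylated reads at that depth could still have a level of up to 0.163% in the shallowest library. In the deepest library it could have up to 0.0304%, counting error only. Counts from the same read are not independent, so a 0 allows higher levels than these. Mitochondrial DNA, which is taken here as a gauge of unconverted and misread bases, had 0.0638 to 0.203% methylated reads (mean 0.116%). These shares rest on 15 to 60 cytosines per library. The 5 libraries whose levels in windows of intermediate methylation scattered most around their group were PML-RARa CD34+ 11, WT CD34+ 1, PML-RARa CD34- 6, PML-RARa CD34+ 5 and PML-RARa CD34- 12, and PML-RARa CD34+ 11, WT CD34+ 1 and PML-RARa CD34+ 5 were also the 3 shallowest.

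Members were close to fully unmethylated. Their mean levels had a median of 0.162%, quartiles of 0.103 and 0.775%, and 5th and 95th percentiles of 0.0726 and 4.77%. In 6638 members (56.0%) the mean level lay below 0.203%, the highest mitochondrial share of any library, and in 9285 (78.4%) it lay below 1%. That highest share is the value of PML-RARa CD34- 12 alone, and the mean share over the libraries was 0.116%. The methylation that was present was unevenly spread, since the 1185 members with most methylated reads held 58.2% of them. The 810 windows with at least 20 cytosines in long low runs had a median of 0.521%, and the 797 dense windows at or above 10% had a median of 31.2%.

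**Figure D1:**
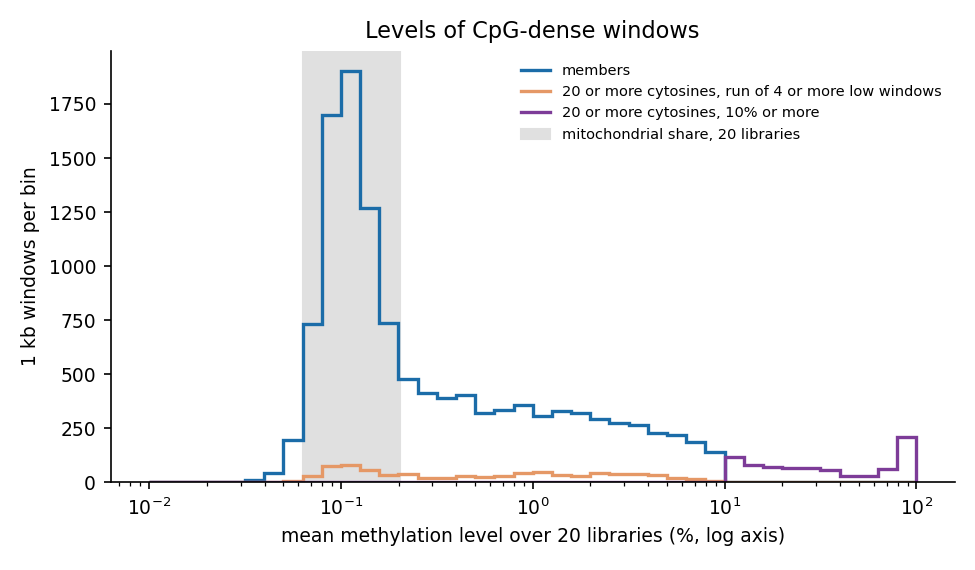
Number of 1 kb windows with at least 20 cytosines in bins of their mean methylation level over 20 libraries (log axis): members, windows in runs of 4 or more low windows, and windows at or above 10%. The grey band is the range of the mitochondrial share of methylated reads, 0.0638 to 0.203%, and the peak of the members lies within it.

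At the edge of the rule the levels formed no gap. The 3 members with the highest mean levels were chr7:88359001-88360000 at 9.99%, chr7:29673001-29674000 at 9.98% and chr15:77786001-77787000 at 9.95%. The 3 windows just outside were chr12:110290001-110291000 at 10.01%, chr9:45178001-45179000, which holds the start of Fxyd6, a regulator of the sodium pump, at 10.01%, and chr11:102851001-102852000 at 10.02%. The lowest members were chr19:10600001-10601000 at 0.0266%, chr14:47451001-47452000 at 0.0270% and chr11:83112001-83113000 at 0.0329%, all under the lowest mitochondrial share.

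Members held 566524 of the 1150978 cytosines read in all libraries (49.2%), with a median of 40 cytosines per member, quartiles of 28 and 60, and at most 203. The member with most cytosines was chr13:43576001-43577000, which holds the start of Ranbp9, a scaffold protein of an E3 ubiquitin ligase complex, and its mean level was 0.0923%. The third, chr5:76733001-76734000 with 200 cytosines, holds the start of Clock, the circadian transcription factor, and had a mean level of 0.129%. The second, chr4:128483001-128484000 with 201 cytosines, stood at 0.779%, where PML-RARa CD34+ 11 was highest at 2.25%. Members were found on all 19 autosomes, where they made up between 82.1% (chromosome 8) and 95.4% (chromosome 16) of dense windows, and their median level per chromosome ran from 0.140 to 0.199%.

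Isolation here means at most 3 adjacent low windows. Runs of 1 held 3782 members (31.9%), runs of 2 held 6430 (54.3%) and runs of 3 held 1638 (13.8%), with median levels of 0.177%, 0.149% and 0.202%. The borders were often not seen: of the 3782 single members, 2913 had no measured window on either side, 790 had 1 and only 79 had both. The 948 neighbours that were measured had a median level of 32.5% (quartiles 17.4 and 68.8%), and 34.7% of them were at 50% or more. Every measured neighbour of a single member is at 10% or more by the rule, since a lower window would have joined its run. These levels therefore describe the neighbours and do not test whether the borders are methylated. Inside the window, level did not depend much on place, as the mean over cytosines was 0.834% in the first 100 bases, 0.700% in the seventh 100 bases and 0.841% in the last 100 bases, while the medians stayed between 0.103 and 0.108%. On the plus strand the mean level was 0.766% and on the minus strand 0.751%.

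Single cytosines showed where the residual methylation sat. The median cytosine of a member had a mean level of 0.104%, and 127405 cytosines (22.5%) had 0 methylated reads in all libraries. Above 10% lay 7294 cytosines (1.29%), and above 50% lay 703, spread over 419 members. Both strands were read at 68 CpGs with a strand above 50%, and in 47 of them the other strand was above 50% too, while in 6 (8.82%) it was under 10%. Among CpGs with a strand above 50% outside members, 6.15% had the other strand under 10%. Most of these highly methylated CpGs were methylated on both strands.

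Gene starts were placed on mm9 for 9859 RefSeq promoters of 8705 genes on chromosomes 1 to 19. Of these starts 6828 (69.3%), from 6095 genes, fell in members, 2111 in low windows with fewer than 20 cytosines, 232 in dense windows of long runs, 364 in windows at or above 10%, and 324 in windows that were not measured. The 6828 starts lay in 5480 members, so that 46.2% of members had a placed start. Placement favours densely read CpG-rich promoters, and a member without a placed start may still hold a gene's start. Members with a placed start had a median level of 0.132% (upper quartile 0.391%) and 44 cytosines, and the others had a median of 0.229% (upper quartile 1.24%) and 37 cytosines. In 597 of the 5480 members (10.9%) at least 2 genes started in opposite directions, the arrangement of a bidirectional promoter.

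Around 5480 starts, 1 for each member, the methylation level was lowest at the start and rose on both sides. From 250 bases before the start to the start the mean over cytosines was 0.356%, and in the first 250 bases after it 0.360%. Between 1000 and 1250 bases it was 8.67% before the start and 8.30% after it. Between 1250 and 1500 bases it was 15.5% before the start and 17.5% after it. Between 2500 and 2750 bases the gene side reached 55.7%, while the upstream side stood at 42.0%. The bins near the start lie mostly inside the members, whose level the rule bounds. Those beyond 1 kb lie outside the window that was chosen, but they are not free of the rule. The limit on runs also bounds how far adjacent low windows can extend, so part of the rise follows from the choice of members. The 4 groups followed similar curves, and in every bin beyond 1 kb the CD34+ mean was above the CD34- mean of the same genotype, a difference that was not tested. At 2500 to 2750 bases after the start the group means were 56.4% ± 0.465 in WT CD34+, 55.1% ± 0.437 in WT CD34-, 56.1% ± 0.489 in PML-RARa CD34+ and 55.2% ± 0.360 in PML-RARa CD34- (SD, n = 5 each). At the start itself they lay between 0.354 and 0.359%.

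**Figure D2:**
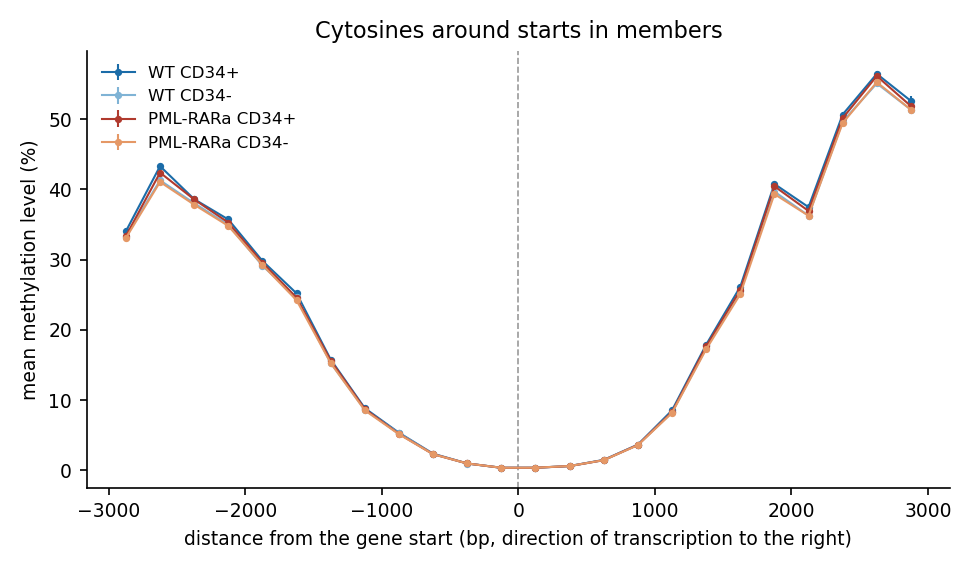
Mean methylation level (%) of cytosines in 250 bp bins by distance from the gene start for 5480 starts in members, with 1 line per group of 5 libraries and bars of 1 SD. The level is below 1% within 500 bp of the start and is above 30% beyond 2 kb on both sides in all 4 groups.

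The DNA before and after these starts was GC-rich. The 300 bases from 250 before to 50 after a start held a median of 28 CpGs (quartiles 22 and 35) for starts in members, 16 for the 364 starts in windows at or above 10%, and 7 for all 31396 promoters of the table on chromosomes 1 to 19. The median GC content was 67.0% for starts in members, 61.3% for those in windows at or above 10% and 53.0% for all promoters, and the observed number of CpGs over that expected from base composition had medians of 0.870, 0.631 and 0.389. Density of read CpGs is part of the rule and of the placement, so these values describe how the members were found.

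Short motifs were searched on both strands of the same 300 bases. GGGCGG, the GC box of Sp1-type factors, was present in 80.4% of starts in members, 54.1% of those in windows at or above 10%, 65.2% of the 15382 promoters with at least 8 CpGs and 36.0% of all promoters. CCGGAAG, a core of ETS factors, was present in 21.6%, 15.1%, 16.5% and 9.00% of the same sets. CCAAT, bound by NF-Y, contains no CpG and was found in 32.9%, 34.3%, 35.7% and 37.3%. TATAAA was found in 4.10% of starts in members, 6.87%, 6.14% and 13.6%. TGACGTCA, the cyclic AMP response element, was found in 3.53%, 1.37%, 3.22% and 1.83%. The E-box was less frequent in members than in windows at or above 10%, at 10.9%, 14.0%, 10.5% and 7.14%. A palindrome was found in 1.33%, 1.37%, 0.936% and 0.462%. The motif of the factor NRF1 was found in 2.40%, 1.65%, 1.96% and 0.968%, and that of YY1 in 1.42%, 1.10%, 1.28% and 0.631%. GGGCGG and CCGGAAG contain a CpG, and the median number of CpGs was 28 for starts in members and 16 in windows at or above 10%. The part of CpG number in the motif shares was not tested. None of these motifs contains another, but they can share bases where they overlap on the DNA, and a match is not a bound site.

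The lists of genes that follow were drawn up with earlier results of these data known, and each gene is classed by a start in a member where it has one. Of 41 placed ribosomal protein genes, the building blocks of the ribosome, 30 started in members and 10 in low windows with fewer than 20 cytosines, and none in a window at or above 10%. The median level of those 30 members was 0.0937%, beside 0.162% over all members, and 27 of them lay below the highest mitochondrial share. Rpl9 (81 cytosines) ranged over the 20 libraries from 0.0256 to 0.315% with a median of 0.0885%, Rps15 (67) from 0.00867 to 0.175% with a median of 0.0653%, and Rpl19 (65) from 0 to 0.380% with a median of 0.0864%. The library medians of these 3 windows lie within the range of the mitochondrial share.

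Rpl5, Rps7 and Rpl37a, ribosomal protein genes named after their values were seen, had the 3 levels of that list at 1% or more. The Rpl5 window, chr5:108329001-108330000 with 69 cytosines, had a mean level of 9.66% and ran from 1.76% to 20.7% (PML-RARa CD34+ 13) with a median of 8.69%. Its group levels were 11.9% ± 4.59 in WT CD34+, 9.81% ± 5.01 in WT CD34-, 12.4% ± 7.68 in PML-RARa CD34+ and 4.49% ± 2.84 in PML-RARa CD34- (SD, n = 5), and the groups overlapped. The Rps7 window had a mean level of 5.06% and the Rpl37a window 4.12%. Ribosomal protein genes have many near-identical processed copies in the genome, and whether reads from such copies entered these windows was not tested.

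Of 21 placed proteasome genes, which encode the subunits of the main protein-degrading complex, 14 started in members, with a median level of 0.112%. Psma7 (56 cytosines), a core subunit, ranged from 0.0118 to 0.153% with a median of 0.0671%, and Psmb4 (44) from 0.0134 to 0.424% with a median of 0.131%. Psmc6, an ATPase of the regulatory particle, had the highest mean level of that list at 0.654%. Of 22 placed cell cycle genes 12 started in members, with a median level of 0.0998%. The E2F repressors E2f7 (98 cytosines) and E2f8 (79), which restrain S phase genes, had library medians of 0.115% and 0.0894%, Mdm2 (91), the ubiquitin ligase of p53, 0.0745%, and Ccne1 (90), the cyclin of S phase entry, 0.0821%. E2f6, a repressor that acts with Polycomb on germline genes, was named after its values were seen: its window had 23 cytosines, a mean level of 6.45%, and library levels from 2.61 to 10.7%.

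The writers, readers and erasers of DNA methylation were themselves mostly unmethylated at their starts. Of 15 placed genes 11 started in members, with a median level of 0.107%. Dnmt3a, a de novo methyltransferase often mutated in myeloid leukaemia, had 178 cytosines in its window and ranged from 0.0184 to 0.251% with a median of 0.104%, and Dnmt3b (84 cytosines) ranged from 0.0315 to 0.307% with a median of 0.111%. Kdm2b (81), a CXXC protein that brings Polycomb to islands, had a library median of 0.106%, and Zbtb38 (84), which binds methylated DNA, 0.0928%. Tet3, which oxidises methylcytosine, had the highest mean level of the list at 2.22%, with libraries between 0.653 and 5.19%.

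Regulators of granulocyte and progenitor cells followed. Of 19 placed genes 10 started in members and 5 in dense windows of long low runs, and the 10 members had a median level of 0.130%. Cebpb (106 cytosines), which drives emergency granulopoiesis, had group levels of 0.386% ± 0.0591 in WT CD34+, 0.409% ± 0.107 in WT CD34-, 0.285% ± 0.208 in PML-RARa CD34+ and 0.286% ± 0.0978 in PML-RARa CD34- (SD, n = 5). Runx3 (103), Cebpg (91) and Zeb2 (89) had library medians of 0.0913%, 0.0850% and 0.0743%. Among retinoid receptors and their corepressors 7 of 11 placed genes started in members, with a median of 0.146%. Rara, the receptor that the fusion carries, had 38 cytosines and library levels from 0 to 0.519% with a median of 0.168%, Hdac2 (75), a corepressor deacetylase, a median of 0.131%, and Tbl1xr1 (55), a corepressor exchange factor, 0.394%.

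Of 16 placed genes with islands known for hypermethylation in leukaemia 10 started in members, 2 in dense windows of long low runs, 3 in low windows of under 20 cytosines and 1 in a window at or above 10%. That last gene is Mgmt, which encodes a DNA repair enzyme, and its window of 8 cytosines had a mean level of 11.7%, with libraries between 1.94 and 31.6%. The 10 members, low by the rule, had a median of 0.315% and a highest mean level of 0.784%, that of Cdkn2a, which encodes the tumour suppressors p16INK4a and p19ARF. Cdkn2b, which encodes p15INK4b and is known for methylation in acute myeloid leukaemia, had 37 cytosines and library levels from 0.194 to 1.14%. Its group levels were 0.453% ± 0.177 in WT CD34+, 0.660% ± 0.319 in WT CD34-, 0.581% ± 0.252 in PML-RARa CD34+ and 0.769% ± 0.252 in PML-RARa CD34- (SD, n = 5), and all groups overlapped. Id4 (96 cytosines), Sfrp2 (66) and Bmi1 (101) had library medians of 0.471%, 0.660% and 0.107%. Cebpa, the granulocyte master regulator, had 78 cytosines and a library median of 0.0790%, with 1 library apart, PML-RARa CD34- 6, at 1.10%.

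Developmental regulators had the highest median level of the lists over members, although the highest single level was that of Rpl5. Of 31 placed genes 18 started in members and 7 in dense windows of long low runs. Of the others, 3 started in low windows with fewer than 20 cytosines, 1 in a window at or above 10% and 2 in windows not measured. The 18 members had a median level of 1.37%, none lay below the highest mitochondrial share, and 10 were at 1% or more, against 2565 of 11850 members at 1% or more overall. Six2 (127 cytosines), Nkx6-1 (125) and Pax2 (89), regulators of kidney, pancreas and kidney development in that order, had library medians of 0.715%, 0.794% and 0.692%, and Hoxa13 (71), a limb regulator, 1.01%. Hoxd10 had the highest mean level at 9.36%, with group levels of 11.0% ± 2.71 in WT CD34+, 10.0% ± 1.38 in WT CD34-, 7.47% ± 3.38 in PML-RARa CD34+ and 8.95% ± 1.84 in PML-RARa CD34- (SD, n = 5), which overlapped. Of 10 placed germline genes with islands known to be methylated in somatic cells, none started in a member, and 7 started in windows at or above 10%. These lists differ in the number of cytosines read per window, and no test of the difference between lists was made.

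**Figure D3:**
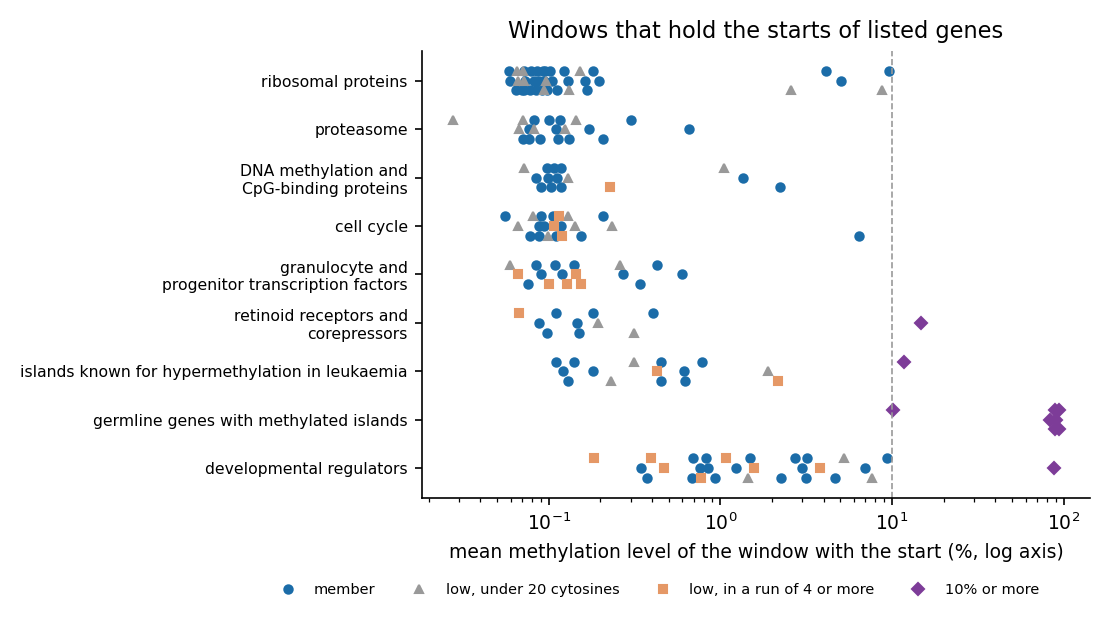
Mean methylation level over 20 libraries (log axis) of the window that holds the start of each listed gene, by list, with colour and shape for the class of the window. The dashed line is the 10% limit. Ribosomal protein, proteasome and cell cycle members sit mostly near 0.1%, and the members among developmental regulators between 0.345 and 9.36%.

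The first question for the groups is whether the mean level over members moved with genotype or maturation. The mean over members was 0.919% ± 0.0364 in WT CD34+, 0.886% ± 0.0635 in WT CD34-, 0.911% ± 0.0952 in PML-RARa CD34+ and 0.864% ± 0.0440 in PML-RARa CD34- (SD, n = 5 each). None of the 4 differences between groups exceeded the larger SD of the groups compared: PML-RARa minus WT was -0.00803 points in CD34+ and -0.0222 points in CD34- cells, and CD34- minus CD34+ was -0.0331 points in WT and -0.0472 points in PML-RARa. The median over members had group means of 0.163%, 0.173%, 0.153% and 0.146% in the same order. PML-RARa CD34- 6 stood apart with a median of 0.0646%, against 0.123 to 0.196% in the other 19 libraries, and with 13.1% of members at 0, although it is among the deeper libraries and its mean over members, 0.846%, lay within the range of its group.

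**Figure D4:**
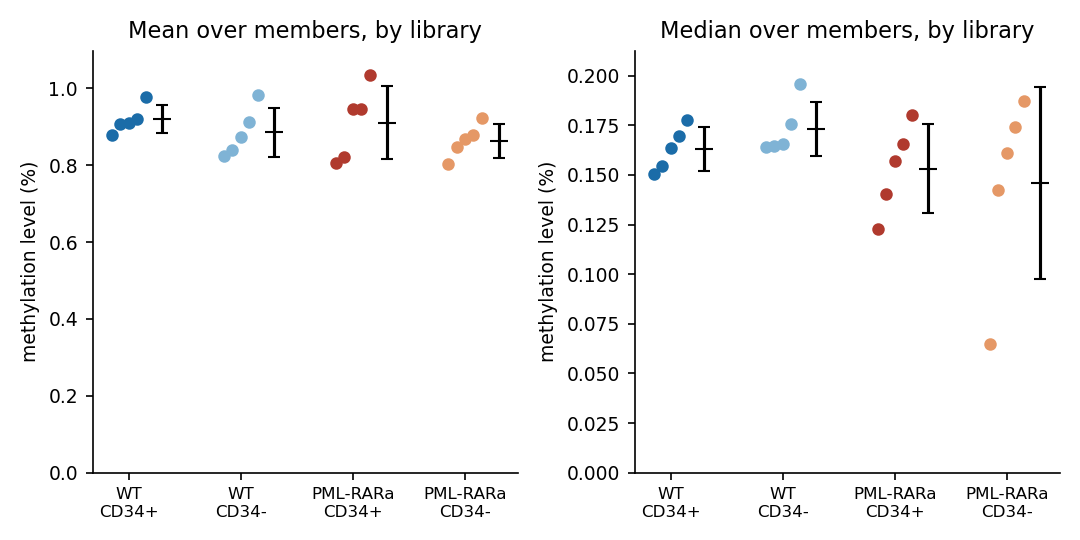
Mean (left) and median (right) methylation level over 11850 members in each of 20 libraries (points, 5 per group, ordered by value), with the group mean and SD beside them. The groups overlap in both panels, and 1 PML-RARa CD34- library has a median of 0.0646%.

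Within flowcells, the sequencing run that the labels name, the small differences did not keep 1 direction. PML-RARa minus WT in CD34+ cells was 0.0262 points within the flowcell with WT CD34+ 7 and 0.0464 points within that with WT CD34+ 9 and 15, against -0.00803 points over all libraries. In CD34- cells it was -0.0282 and 0.0269 points within the 2 flowcells that hold both genotypes. CD34- minus CD34+ in WT was -0.0766, -0.0348 and 0.0113 points within the 3 flowcells that hold both groups, and -0.0340 points in PML-RARa within the only flowcell that holds both. Some of these values rest on single libraries. The value of -0.0348 points is WT CD34- 8 against WT CD34+ 7, the only WT libraries of their flowcell. PML-RARa CD34+ 13 is the only PML-RARa library of the flowcell with WT CD34+ 9 and 15.

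PML-RARa against WT was tested window by window with a quasi-binomial model of methylated and unmethylated reads fitted over all 84524 windows, with p-values adjusted by the Benjamini-Hochberg method. A window was called when the adjusted p was under 0.05, and separately when the difference was also at least 10 points. In CD34+ early promyelocytes 0 members were called by either rule, as were 0% of all windows, and 387 members had an unadjusted p under 0.05, or 3.27% beside 4.39% of all windows. In CD34- late promyelocytes 0 members were called by either rule, as were 0% of all windows, and 754 members (6.36%) had an unadjusted p under 0.05 beside 8.03% of all windows. limma on log2 ratios, the other tool run, called 0 members in both, beside 0% of all windows in CD34+ and 0.00237% in CD34- cells. Its unadjusted p was under 0.05 in 472 members (3.98%) in CD34+ cells, beside 4.5% of all windows, and in 612 members (5.16%) in CD34- cells, beside 4.48%. The smallest adjusted p of a member was 0.533 in CD34+ and 0.212 in CD34- cells.

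Differences between genotypes ran in both directions. In CD34+ cells the difference was between -5.63 and 4.84 points, with a median of -0.00873 points in members and -0.0434 points over all windows, and 5388 members were higher and 6462 lower in PML-RARa, so that 45.5% were higher, beside 45.1% of all windows. A difference of more than 2 points upward was seen in 73 members and downward in 77. In CD34- cells the range was -5.58 to 4.45 points, the median -0.0121 points beside -0.0158 over all windows, and 5227 members were higher (44.1%, beside 48.1% of all windows) and 6623 lower. The difference there was over 2 points upward in 24 members and downward in 41, none of them called. Groups did not overlap in 19 members higher and 52 lower in CD34+ cells, beside 0.228% and 0.531% of all windows, and in 14 higher and 86 lower in CD34- cells, beside 0.414% and 0.495% of all windows. As shares of the members these are 0.160%, 0.439%, 0.118% and 0.726%.

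Among members with the smallest p for genotype, none of which passed the adjustment, were several with placed starts. At the start of Trhde, which encodes an enzyme that degrades thyrotropin-releasing hormone, the window chr10:114239001-114240000 had levels of 2.08, 2.75, 3.61, 4.01 and 5.71% in PML-RARa CD34+ libraries and 1.17, 1.21, 1.43, 2.07 and 2.21% in WT CD34+ (difference 2.01 points, quasi-binomial adjusted p = 0.598), and the groups overlapped. At the start of Eci1, an enzyme of mitochondrial fatty acid oxidation, chr17:24563001-24564000 had 0, 0, 0.0199, 0.0314 and 0.0375% in PML-RARa CD34+ and 0.112, 0.207, 0.471, 0.537 and 0.894% in WT CD34+ (difference -0.426 points, quasi-binomial adjusted p = 0.533). The Eci1 groups did not overlap, and the PML-RARa levels were below the lowest mitochondrial share. In CD34- cells the start of Sstr2, a somatostatin receptor, at chr11:113480001-113481000 had 0, 0.0387, 0.0739, 0.0930 and 0.0938% in PML-RARa and 0.132, 0.277, 0.297, 0.332 and 0.418% in WT (difference -0.231 points, quasi-binomial adjusted p = 0.212). At the start of Lgi2, a secreted leucine-rich repeat protein, chr5:52957001-52958000 averaged 0.555% ± 0.281 in PML-RARa and 1.49% ± 0.530 in WT CD34- (SD, n = 5, quasi-binomial adjusted p = 0.329, two-sided exact permutation p = 0.00794).

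Maturation was the comparison with calls. Between CD34- and CD34+ cells of WT mice 3 members (0.0253%) had an adjusted p under 0.05, all lower in CD34- cells, beside 0.516% of all windows called by that rule (0.448% lower and 0.0674% higher), and 0 members were called with a difference of at least 10 points, beside 0.45% of all windows. Unadjusted p-values under 0.05 were found in 371 members (3.13%) beside 6.18% of all windows, and limma on log2 ratios called 0 members beside 0.13% of all windows, with 349 members (2.95%) at an unadjusted p under 0.05 beside 4.15%. In PML-RARa mice 1 member (0.00844%) had an adjusted p under 0.05, lower in CD34- cells, beside 0.0946% of all windows (0.0805% lower and 0.0142% higher), and 0 members reached 10 points, beside 0.0722% of all windows. Unadjusted p-values under 0.05 were found in 767 members (6.47%) beside 9.59%, and limma called 1, another member, beside 0.0248% of all windows, with 759 members (6.41%) at an unadjusted p under 0.05 beside 7.54%. A member's mean level is under 10% by rule, which bounds the difference it can show, so a lower share of 10-point calls than elsewhere follows from the choice of members.

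Over all members the difference of CD34- minus CD34+ cells had a median of 0.00357 points in WT, beside -0.161 over all windows, and of -0.00106 points in PML-RARa, beside -0.0571 over all windows. The range was -5.77 to 5.09 points in WT and -7.94 to 3.90 points in PML-RARa. Groups did not overlap in 63 members higher and 50 lower in WT CD34- cells, beside 0.377% and 1.74% of all windows, and in 37 higher and 49 lower in PML-RARa, beside 0.284% and 0.765% of all windows. The interaction of genotype and fraction called 0 members by either rule, as it did 0% of all windows. By limma on log2 ratios it also called 0 members and 0% of all windows. An unadjusted p under 0.05 was found in 391 members (3.30%) by the quasi-binomial model, beside 5.19% of all windows, and in 446 (3.76%) by limma, beside 3.9%.

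The member with the smallest p was chr13:47289001-47290000, a single window with 22 cytosines, no measured neighbour and no placed gene start. Its levels were 5.29, 5.48, 7.25, 7.51 and 10.5% in WT CD34+ and 0.0571, 1.23, 1.63, 1.66 and 2.63% in WT CD34-, so that all 5 CD34- libraries were lower than every CD34+ library. The group means were 7.21% ± 2.11 and 1.44% ± 0.929 (SD, n = 5), a difference of -5.77 points (quasi-binomial adjusted p = 0.000321, two-sided exact permutation p = 0.00794, the smallest that 5 against 5 can give). The difference sat at 3 neighbouring cytosines of the 22, positions 47289768, 47289791 and 47289792, where the differences were -24.9, -24.5 and -27.7 points, from WT CD34+ means of 34.2, 29.9 and 30.2%. In PML-RARa the same window had 2.86, 3.66, 4.19, 4.36 and 4.79% in CD34+ and 0.804, 1.05, 1.11, 1.72 and 1.85% in CD34- libraries, again without overlap (difference -2.67 points, quasi-binomial adjusted p = 0.0770). The interaction was not called (quasi-binomial adjusted p = 0.963). The call held when each library was left out in turn, with a highest adjusted p of 0.00206, but not with limma (limma adjusted p = 0.126).

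The second, chr11:100944001-100945000, had 22 cytosines and no placed start. Its levels were 1.75, 2.68, 3.10, 5.16 and 5.29% in WT CD34+ and 0.630, 0.821, 0.906, 1.02 and 1.23% in WT CD34- libraries, which did not overlap (difference -2.67 points, quasi-binomial adjusted p = 0.0171). A few cytosines again carried most of it, with -24.3 points at position 100944818, -16.2 points at 100944817 on the other strand of the same CpG, and -13.8 points at 100944848. In PML-RARa the CD34+ levels, 0.695 to 3.56%, overlapped the CD34- levels, 0.499 to 1.14%. The call was lost without WT CD34- 16, WT CD34- 18 or WT CD34+ 9, with a highest adjusted p of 0.0999, and with limma (limma adjusted p = 0.209).

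The third, chr11:75840001-75841000, had 58 cytosines and lies next to the member chr11:75841001-75842000, where the start of Rflnb was placed, a gene for a filamin-binding protein that organises actin. Levels were 0.807, 0.815, 1.21, 1.34 and 1.41% in WT CD34+ and 0.218, 0.225, 0.401, 0.426 and 0.451% in WT CD34- libraries, without overlap (difference -0.772 points, quasi-binomial adjusted p = 0.0422). The largest differences at single cytosines were -13.7 points at position 75840569 and -10.6 points at 75840545. The call held in 8 of 20 fits that left out 1 library and was lost in the others, and with limma (limma adjusted p = 0.260).

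The member called in PML-RARa was chr7:135381001-135382000, with 75 cytosines and no placed start. Its levels were 0.187, 0.218, 0.245, 0.272 and 0.455% in PML-RARa CD34+ and 0.0316, 0.0441, 0.0610, 0.0669 and 0.0787% in PML-RARa CD34- libraries (difference -0.219 points, quasi-binomial adjusted p = 0.0455). WT libraries lay at 0.0913 to 0.146% in CD34+ and 0.0571 to 0.254% in CD34- cells. The 5 PML-RARa CD34- levels lay below 0.203%, the highest mitochondrial share of a library, and 4 of the 5 PML-RARa CD34+ levels lay above it. The call held in 5 of 20 fits that left out 1 library, PML-RARa CD34- 6 and PML-RARa CD34+ 19 among those whose removal ended it. With limma the adjusted p was 0.0564.

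**Figure D5:**
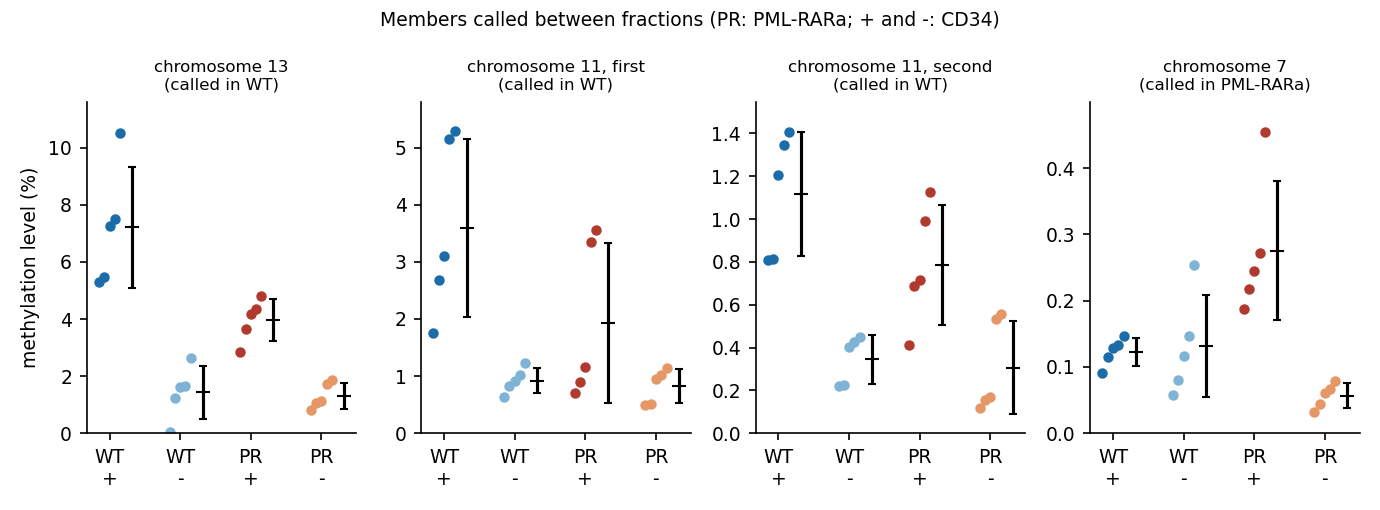
Methylation level (%) of the 4 members called between fractions, in each of 20 libraries (points, 5 per group), with group means and SD; each panel has its own axis. In the 3 windows called in WT every WT CD34- library lies below every WT CD34+ library, and the chromosome 7 window stays under 0.5% throughout.

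Members with higher levels in CD34- cells were also described though none was called. At the start of Qars, the glutaminyl-tRNA synthetase, chr9:108410001-108411000 averaged 0.358% ± 0.193 in WT CD34- and 0.0643% ± 0.0471 in WT CD34+ (SD, n = 5, quasi-binomial adjusted p = 0.133, two-sided exact permutation p = 0.00794). At the start of Hecw2, an E3 ubiquitin ligase, chr1:54251001-54252000 with 104 cytosines averaged 0.632% ± 0.206 and 0.279% ± 0.0656 (SD, n = 5, quasi-binomial adjusted p = 0.172, two-sided exact permutation p = 0.00794). At the start of Fgfr4, a fibroblast growth factor receptor, chr13:55254001-55255000 averaged 2.42% ± 0.792 in PML-RARa CD34- and 1.53% ± 0.134 in PML-RARa CD34+ (SD, n = 5, quasi-binomial adjusted p = 0.146, two-sided exact permutation p = 0.0159). At the start shared by Acvr1, a bone morphogenetic protein receptor, and Upp2, a uridine phosphorylase, chr2:58419001-58420000 with 148 cytosines averaged 0.252% ± 0.0766 in PML-RARa CD34- and 0.116% ± 0.00967 in PML-RARa CD34+ (SD, n = 5, quasi-binomial adjusted p = 0.145, two-sided exact permutation p = 0.00794). In that window every WT CD34- library, at 0.173 to 0.225%, was also above every WT CD34+ library, at 0.115 to 0.153%.

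None of the 111 listed genes that start in members was called in any comparison by the quasi-binomial model. Unadjusted p-values under 0.05 were found for 1 of the 111 for genotype in CD34+ cells, 8 for genotype in CD34- cells, 3 for maturation in WT, 8 for maturation in PML-RARa and 1 for the interaction. The shares of all windows with such a p were 4.39%, 8.03%, 6.18%, 9.59% and 5.19% in the same order. The smallest quasi-binomial adjusted p of a listed gene was 0.266. The largest differences were those of Rpl5, at -7.94 points for maturation in PML-RARa and -5.33 points for genotype in CD34- cells (quasi-binomial adjusted p = 0.582 and 0.585).

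A test of single cytosines, chosen after seeing the data, was fitted over all 1150978 cytosines. With a difference of at least 10 points, 3 of the 566524 cytosines in members passed an adjusted p under 0.05 for maturation in WT, beside 0.0478% of all cytosines. All 3 lay in chr11:100944001-100945000, and 0 passed in the other 3 comparisons, beside 8.69e-05% of all cytosines for either genotype comparison and 0.00321% for maturation in PML-RARa. At any size 12 passed for maturation in WT and 3 in PML-RARa, beside 0.0547% and 0.00417% of all cytosines. Several of those have 0 methylated reads in every library of a group, where the spread in that group is estimated as 0. For genotype 0 cytosines of members passed, and an unadjusted p under 0.05 was found at 25570 (4.51%) in CD34+ and 34935 (6.17%) in CD34- cells, beside 5.3% and 8.24% of all cytosines. For maturation the unadjusted shares were 4.60% in WT and 5.89% in PML-RARa, beside 5.78% and 8.35% of all cytosines.

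Single libraries accounted for the highest levels in members. A level above 20% was seen in 32 members, and the highest library was PML-RARa CD34+ 5 in 12 of them, WT CD34+ 1 in 8, PML-RARa CD34+ 11 in 7 and PML-RARa CD34- 6 in 3. In chr9:51087001-51088000 the level was 32.8% in PML-RARa CD34+ 11 and 19.1% in the next library. In chr5:122841001-122842000, which holds the start of Arpc3, a subunit of the actin-nucleating Arp2/3 complex, it was 28.0% in PML-RARa CD34+ 5 and 16.8% in the next. In chr3:122123001-122124000 it was 25.3% in PML-RARa CD34+ 5 and 16.7% in the next. PML-RARa CD34+ 5, WT CD34+ 1 and PML-RARa CD34+ 11 are the shallowest of the 20, and the part of depth was not tested.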

How the data were processed

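CpG methylation was measured in 20 libraries of 4 groups of 5. Per the file headers, each deposited file lists cytosines with their read coverage, a count, and the percent of reads with C and with T at each, and in every file listed cytosines have a coverage of at least 10. Reads were processed with CASAVA 1.8.2 and Bismark on mm9, per the submitters' processing notes, and trimming, deduplication and strand filters are not given in the sources used here. Methylated reads were recovered from coverage and percent.

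Cytosines covered in all 20 libraries on chromosomes 1 to 19 were summed in fixed 1 kb windows, keeping 84524 windows with at least 3 cytosines. A quasi-binomial model (logit link, 1 term per group) was used for each window, with an overdispersion of 16 residual degrees of freedom moderated across windows (prior degrees of freedom 3.07) and not below 1, F tests, and Benjamini-Hochberg adjustment over all windows (Python 3.11.15, numpy 2.4.6, scipy 1.17.1, pandas 2.3.3). limma 3.58.1 (R 4.3.3) on log2 ratios with a pseudocount of 0.5 was the other test. Single windows also had two-sided exact permutation tests over libraries. Tested on simulated data, the quasi-binomial test recovered changes but made more false calls than its nominal share, so calls near the threshold are weak.

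Of 32851 promoters in RefSeq's GRCm38.p6 table, 10096 were placed on mm9 at a unique position where every listed CpG fell on a CpG of the sequence and at least 8 matched; 99.891% fell on the table's chromosome. Windows named are, per comparison, the 3 smallest p in each direction, the called members, the extremes of level and cytosine number, those next to the 10% limit and up to 5 with a library above 20%; of these a selection is described. Genes named are the 4 with most cytosines per list, and others where the text says so; Tet3, Psmc6, Cdkn2a, Cdkn2b, Cebpa, Rara, Hoxd10, Fbxl19 and Tbx1 were also picked after their values were seen. The members and gene lists were chosen with earlier results of these data known. Alternatives changed the test, the libraries, the coverage, the batch terms, and the rule's limits.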

Additional observations from a re-analysis of the deposited data

Results flagged for a closer look

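In 47 of 384 groups of 5 libraries, 1 library stood apart, its gap to the nearest library taking more than 0.71 of the group's range. Chance gives about 1 in 20 such groups only where values are independent and normally distributed. These libraries differ in depth, and some of the windows and genes were picked for extreme levels or after their values were seen. The number of groups found therefore cannot show an excess over chance, and the values below are given with no explanation.

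WT CD34+ 1 stood apart in its group at 2.11% in the Six2 window, 0.280% in Bmi1, 1.55% in Psmd1, 20.0% in Rpl5, 12.4% in Rpl37a, 2.90% in Cdkn2a and 15.5% in Tbx1. It also had 16.3% of members at 0, 157 members above 10% and 9 above 20%. WT CD34- 2 stood apart at 0.294% in Psmd1, 0.315% in Rpl9, 18.5% in Rpl5, 2.46% in Rps7, 11.2% in Tbx1 and 0.179% in the Ranbp9 window, and had the only member above 20% of its group, 1 in number. PML-RARa CD34+ 5 stood apart at 0.306% in Runx3, 0.725% in Cebpg, 0.640% in Psmd1, 1.63% in Cdkn2a and 25.3% in chr3:122123001-122124000.

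PML-RARa CD34- 6 stood apart at 1.10% in Cebpa and 10.0% in Fbxl19, a CXXC protein gene, and had 3 members above 20%. PML-RARa CD34- 4 stood apart at 0.354% in Runx3, 0.400% in Bmi1 and 6.12% in Rpl37a, PML-RARa CD34+ 19 at 0.645% in Zbtb38 and 0.0185% in chr19:10600001-10601000, and PML-RARa CD34+ 3 at 0.192% in Zeb2, 0.117% in Rpl9 and 0.121% in chr11:83112001-83113000. PML-RARa CD34- 12 had a mitochondrial share of 0.203%, 7.21% in chr13:52625001-52626000 and 19.1% in chr11:102851001-102852000, which is no member.

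Single values stood apart in the other libraries. These were Dnmt3b at 0.187% in WT CD34+ 7, Med1 at 0.297% in WT CD34- 16, Rxrb at 0.324% in WT CD34+ 15, chr14:34133001-34134000 at 0.538% in WT CD34- 8 and 0.107% in PML-RARa CD34+ 11, chr12:103942001-103943000 at 4.47% in WT CD34- 18, and chr14:47451001-47452000 at 0.0829% in PML-RARa CD34- 14. The window chr15:72377001-72378000 had 6.02% in WT CD34+ 7 and 2.05% in PML-RARa CD34+ 11, chr5:144076001-144077000 had 0.0328% in WT CD34+ 9, and chr11:83112001-83113000 had 0.221% in WT CD34- 10.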

How the results depend on the processing

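The number of members was 7452 with a coverage minimum of 20, against 11850, and between 8528 and 16761 under the other limits tried. For maturation in WT, with 3 members called, 5 were called with only the 2 groups compared, 0 with limma, 0 with limma and the mitochondrial share as a covariate, and 1 when reads were thinned to equal coverage; leaving out 1 library gave 1 to 4, with 1 left without WT CD34- 16, WT CD34- 18 or WT CD34+ 9. For maturation in PML-RARa, with 1 called, 0 were called with only the 2 groups compared, with limma and the mitochondrial covariate, with flowcell as a factor, with a coverage minimum of 20, when thinned, and, chosen after seeing the data, without the 5 libraries of largest scatter. Leaving out 1 library gave 0 to 2 there, with 2 without WT CD34- 16. Adjusted p-values over the alternatives ran from 0.000153 to 0.161 for the chromosome 13 window, from 0.00789 to 0.294 for chr11:100944001-100945000, from 0.0218 to 0.355 for chr11:75840001-75841000 and from 0.0285 to 0.555 for the chromosome 7 window. No difference that was called changed direction. The differences of the mean over members, none larger than the larger SD of the groups compared, changed sign in some settings: for genotype in CD34+ cells they ran from -0.0388 to 0.0180 points when 1 library was left out and reached 0.0286 points with the mitochondrial share subtracted. The groups share no leading numbers, but consecutive leading numbers of the titles join a CD34+ and a CD34- library of 1 genotype into 10 pairs. The labels do not say that a pair is 1 mouse. Both libraries of each pair also have the same second title number, #1 or #2. That number was a factor in 1 of the alternatives only, and whether it marks shared animals or preparations is not known. Over all windows the deviations of a pair's libraries from their group means had correlations of -0.0290 to 0.143, above 0.1 in 3 of 10 pairs. Of 20 libraries, 11 correlated best with their partner among the 5 libraries of the same genotype and the other fraction. In members the correlations were -0.203 to 0.317, above 0.1 in 5 of 10 pairs, and 8 libraries correlated best with their partner. The other combinations ran from -0.341 to 0.355 in members, a range that contains that of the pairs. The main fit did not use the pairing, so a pairing that is real is ignored there. With the consecutive title numbers as a replicate block, chosen after seeing the data, 2 members were called for maturation in WT (beside 0.457% of all windows), without chr11:75840001-75841000 (quasi-binomial adjusted p = 0.0839), 4 in PML-RARa (beside 0.147%) and 0 for the interaction (beside 0%). The 4 were chr1:95202001-95203000, chr6:85019001-85020000, chr11:117127001-117128000 and chr19:47806001-47807000, all lower in CD34- cells, and the chromosome 7 window was not called (quasi-binomial adjusted p = 0.0832). An unadjusted p under 0.05 was found with the block in 687 members (5.80%) in WT, beside 8.37% of all windows. In PML-RARa it was found in 1000 members (8.44%), beside 10.7% of all windows. Levels near 0.1% cannot be told apart from unconverted bases, and depth limits the 3 shallowest libraries most.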

Other observations

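A few listed genes had CpG-dense starts that were methylated in these promyelocytes, as the counterpart of the members. The start of Hoxa5, a homeobox regulator of lung and blood development, lay in a window of 45 cytosines with a mean level of 87.6%, from 82.4 to 91.3% over the libraries. Ddx4, with 31 cytosines in its window, ranged from 86.6 to 93.7%. The meiotic genes Mael and Hormad1, with 21 and 23 cytosines, had mean levels of 89.0% and 83.5%. Dazl, an RNA-binding protein of germ cells, stood just above the limit at 10.2%, between 6.03 and 25.8%, and Rarg, retinoic acid receptor gamma, at 14.8%, between 3.66 and 28.7%. Both overlap the range that single libraries reached in members.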
